A study of Homo sapiens with 8 samples.

Results

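The broad H3K4me3 domains described here are the 434 regions of 2000 bp or more among the 22593 H3K4me3 regions listed for unstimulated T47D-MTVL cells, a human breast cancer cell line. Width was taken as the listed end minus the listed start, in build hg19, and 3 regions on the mitochondrial chromosome were left out. That left 22156 narrower regions, of which 4956 were between 1000 and 2000 bp. The domains were 1.92% of the regions and 6.24% of the bases under H3K4me3, 1.04 Mb in all. Their median width was 2265 bp (quartiles 2121 and 2524 bp), and 95 of them were at most 2100 bp wide. The members were thus chosen by their H3K4me3 width, which is given as a description. The 5 domains nearest the threshold were 2000, 2001, 2002, 2003 and 2003 bp wide, and of the 5 widest regions left out 2 were 1998 bp and the others 1 bp wider.

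Trimethylation of histone H3 at lysine 4 (H3K4me3) marks the nucleosomes around active transcription start sites, whereas monomethylation (H3K4me1) marks enhancers and the shoulders of promoters. At most genes H3K4me3 covers a few nucleosomes, and at a minority it spreads along the start of the gene into a broad domain, which in many tissues lies at regulators of cell identity and at heavily transcribed genes. The progesterone receptor (PR) is a steroid receptor that binds DNA once it holds hormone, and in mammary cells it works beside the luminal regulators GATA3 and the oestrogen receptor.

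The study mapped PR by ChIP-seq in 5 samples, unstimulated cells (0 min) and cells given 10 nM R5020, a synthetic progestin, for 5, 30, 60 or 360 min. It mapped H3K4me3, H3K4me1 and RNA polymerase II in 3 further samples of unstimulated cells. All cells had been kept in charcoal-treated serum for 48 h and then without serum for 1 day. Each group holds 1 sample, so differences between times or between kinds of region have no replicate check and no test was made. Intervals are exact (Clopper-Pearson) 95% intervals over regions or sites. These share libraries and neighbourhoods and are not independent, so the intervals cover counting error only.

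The chromatin marks were mapped before hormone, so nothing here shows how they stood after R5020. The PR lists held 844 sites at 0 min and 22973, 25872, 24436 and 23841 sites at 5, 30, 60 and 360 min. A site is counted as inside a domain when it overlaps it by 1 bp or more. No hg19 gene annotation was used: the genes named at domains are background, placed from the well-known map of this build after the list had been seen, and 33 of the 434 domains are named in this way.

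Promoter sequences show what lies at the start of 3 of these genes, chosen because their domains stand for different arrangements in the data. The VEZF1 domain had a PR site at all 5 times, the JUN domain had PR sites and no H3K4me1 region, and the MYB domain had no polymerase region and no PR site nearby. Each is the 300 bases that RefSeq (GRCh38.p14) gives from 250 before to 50 after the gene's start, read 5′ to 3′ on the gene's strand, with CpG dinucleotides in capitals. That build differs from the lists' hg19, so its coordinates serve only to locate the sequences: chr17:57988205-57988504 on the minus strand for VEZF1, chr1:58783998-58784297 on the minus strand for JUN and chr6:135181058-135181357 on the plus strand for MYB.
VEZF1: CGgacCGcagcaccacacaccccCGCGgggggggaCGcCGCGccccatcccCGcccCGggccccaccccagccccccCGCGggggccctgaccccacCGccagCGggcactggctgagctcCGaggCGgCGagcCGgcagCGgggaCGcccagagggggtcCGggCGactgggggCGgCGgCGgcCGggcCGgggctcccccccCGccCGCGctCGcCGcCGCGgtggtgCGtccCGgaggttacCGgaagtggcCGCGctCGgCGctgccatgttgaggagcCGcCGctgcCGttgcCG
JUN: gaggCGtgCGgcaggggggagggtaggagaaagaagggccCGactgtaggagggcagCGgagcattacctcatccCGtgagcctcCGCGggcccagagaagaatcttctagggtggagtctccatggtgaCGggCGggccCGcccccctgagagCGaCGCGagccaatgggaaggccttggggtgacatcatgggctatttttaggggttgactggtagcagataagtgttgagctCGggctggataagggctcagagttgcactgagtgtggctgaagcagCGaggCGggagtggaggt
MYB: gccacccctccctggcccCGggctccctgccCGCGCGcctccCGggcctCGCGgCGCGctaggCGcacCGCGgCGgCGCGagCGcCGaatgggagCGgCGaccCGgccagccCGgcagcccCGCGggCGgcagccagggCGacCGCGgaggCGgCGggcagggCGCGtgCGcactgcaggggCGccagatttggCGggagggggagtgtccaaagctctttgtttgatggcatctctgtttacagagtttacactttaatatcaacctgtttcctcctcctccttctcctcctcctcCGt
The VEZF1 promoter held 44 CpGs, a number reached by 4.19% of the 35116 promoters in the table. The MYB promoter held 35, reached by 14.1%, and the JUN promoter 16, reached by 47.5%, beside a median of 14 over the table. The receptor's inverted repeat, searched as ACANNNTGT (which reads the same on both strands), was in none of the 3 windows and in 5.37% of all promoters. A single arm of the repeat, TGTTC or GAACA, which overlaps the fuller repeat, was likewise in none of the 3 and in 35.6% of all promoters. The windows were set by the gene's start and not by the PR sites, whose own sequence was not read. These motif counts therefore do not describe the stretches where PR was listed.

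The widest domain lay at GATA3, the zinc finger factor that specifies luminal mammary cells, and spanned 7765 bp (chr10:8096657-8104422). Polymerase regions covered 94.4% of it and an H3K4me1 region 67.1%. A PR site inside it was listed at 5, 60 and 360 min and not at 0 or 30 min, and 4, 2, 5 and 3 sites lay within 10 kb at 5, 30, 60 and 360 min. The next domain was 5016 bp wide (chr7:5458424-5463440) and had 2, 1, 1 and 1 PR sites inside over the same 4 times. The third, 4257 bp at the luminal keratin gene KRT19 (chr17:39680337-39684594), held no PR site at any time, although 9, 9, 9 and 7 sites lay within 10 kb, the nearest at 60 min being 88 bp from its edge. Among the 10 widest domains 5 had a PR site inside at 60 min, and 8 had one within 10 kb.

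The others of the 10 widest followed different courses. The domain at ZFP36L1, an mRNA decay factor, was 3976 bp wide with 1 PR site within 10 kb at each hormone time and none inside. At AHNAK, a large scaffold protein gene, 3931 bp were overlapped by 7 polymerase regions and by 0, 1, 2 and 1 PR sites at 5, 30, 60 and 360 min. At GRHL2, an epithelial transcription factor, 3697 bp had none inside and 3, 4, 5 and 4 sites within 10 kb. A domain of 3693 bp (chr16:85588428-85592121) had 1 site inside at every time, 0 min included. The domains of 3657 bp (chr19:45906870-45910527) and 3559 bp (chr1:149855994-149859553) had no PR site within 10 kb at any time, and the nearest 60 min sites were 100036 and 49689 bp away. The domain at SOX13, of 3514 bp, had 1 site inside and 3 within 10 kb at each of the 4 hormone times.

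Nearly all broad domains overlapped RNA polymerase II, the enzyme that transcribes protein-coding genes. The count was 416 of 434 (95.9%, interval 93.5 to 97.5), against 66.5% of narrower regions, 90.6% of regions between 1000 and 2000 bp and 67.1% of all H3K4me3 regions. A wider region has more bases in which an overlap can fall, so the measure was repeated on the 500 bp at each region's midpoint. There the shares were 85.7% (82.1 to 88.9), 63.6% and 76.4%. All 34 domains of 3000 bp or more met a polymerase region. By bases, polymerase regions covered 61.0% of the broad domains, 46.9% of narrower regions and 76.7% of the domains of 3000 bp or more. A broad domain often met several polymerase regions: 239 (55.1%) met 2 or more, against 8.72% of narrower regions. The share was 22.5% in regions between 1000 and 2000 bp and 33.3% in those between 1500 and 2000 bp. It rose with width, for which this count was not adjusted. With each domain cut into 4 equal lengths, polymerase covered 69.9% of the inner 2 and 52.2% of the outer 2.

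The 18 domains without polymerase were 2739 bp wide at most, and 5 of them had a polymerase region within 2 kb. Of these 18, 4 had a PR site within 10 kb at 60 min (22.2%, interval 6.41 to 47.6), against 219 of the 416 with polymerase (52.6%, 47.7 to 57.5) and 2002 of the 7425 narrower regions without it (interval 26.0 to 28.0%). The higher share with PR within 10 kb was thus not seen among the domains without polymerase, which are few. The domain at MYB, a proto-oncogene under oestrogen control in breast cancer cells, was among the 18 (chr6:135502354-135504746, 2392 bp). An H3K4me1 region covered all of it, and its nearest 60 min PR site was 27683 bp away.

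H3K4me1 was also present at most broad domains. It overlapped 398 of them (91.7%, interval 88.7 to 94.1), against 73.0% of narrower regions, 80.3% of those between 1000 and 2000 bp and 73.3% of all H3K4me3 regions. At the midpoint the shares were 86.6%, 72.2% and 76.5%. In all, 283 domains (65.2%, 60.5 to 69.7) lay wholly inside H3K4me1 regions. This was close to the 63.2% of narrower regions and the 60.8% of those between 1000 and 2000 bp. Unlike polymerase, H3K4me1 covered the inner 2 of those lengths (83.3%) and the outer 2 (83.0%) alike. The H3K4me1 regions at broad domains had a median width of 5500 bp, against 3442 bp at narrower ones and 4074 bp at H3K4me3 regions between 1000 and 2000 bp. These medians were not adjusted for the width of the H3K4me3 region. Both marks overlapped 381 domains (87.8%), against 50.6% of narrower regions, and 1 domain had neither.

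There were 36 domains without H3K4me1 (8.29%), and 3 of the 33 named domains were among them. XBP1, a stress-response factor and oestrogen target, had a 3076 bp domain with 84.9% polymerase coverage, and PRLR, the prolactin receptor, one of 2077 bp with 75.2%. JUN, a subunit of the AP-1 factor, had one of 2393 bp with 71.8%. Of the 36, 15 had an H3K4me1 region within 2 kb. A 60 min PR site lay within 10 kb of 17 (47.2%, interval 30.4 to 64.5), against 206 of the 398 with H3K4me1 (51.8%, 46.7 to 56.8), and these intervals overlap. Among other regions without H3K4me1, the share was 26.1% (23.4 to 29.0) between 1000 and 2000 bp and 21.1% (20.1 to 22.2) in all narrower ones. Both lay under the interval for the 36 domains.

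**Figure D1:**
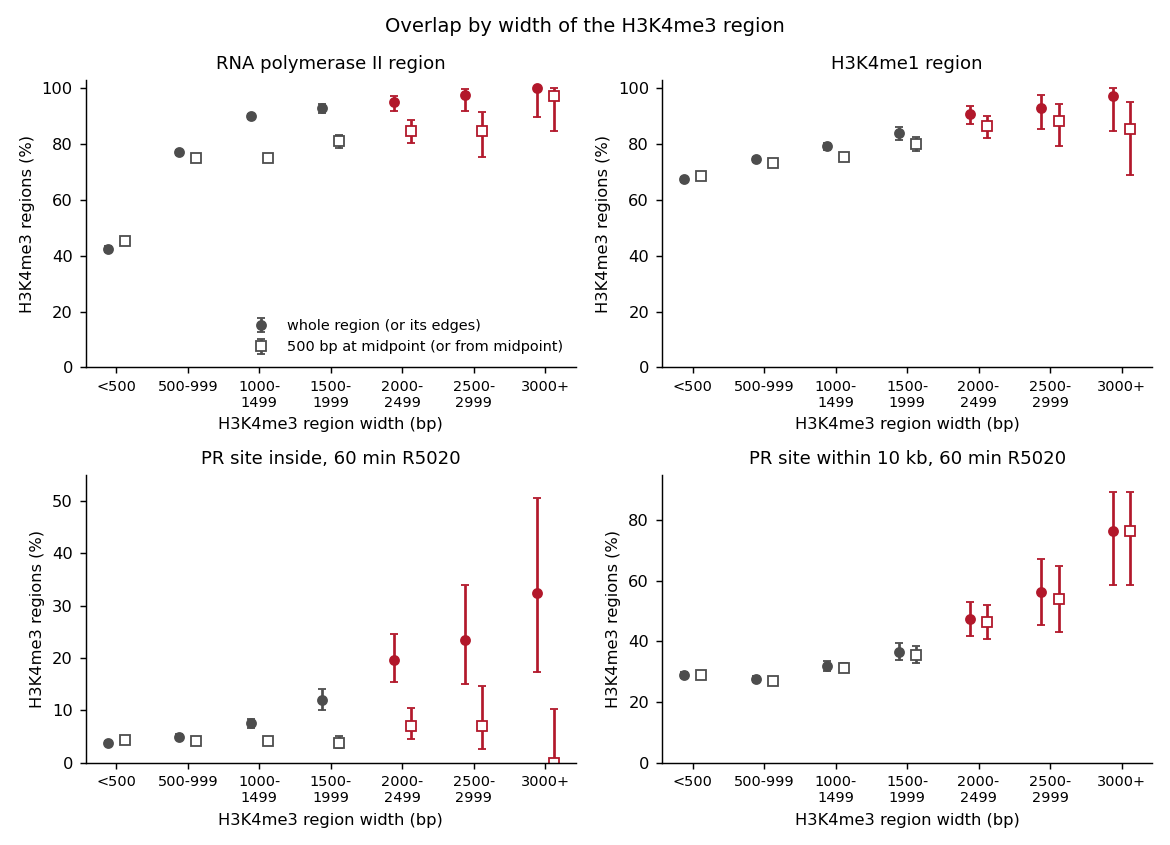
Share of H3K4me3 regions in 7 width classes (x axis, bp) that overlap a polymerase or H3K4me1 region or have a PR site inside or within 10 kb at 60 min (y axis, percent). Filled circles use the whole region, open squares the 500 bp at its midpoint (or 10 kb from the midpoint), red marks the broad classes and bars are exact 95% intervals. PR within 10 kb goes from 29.0% in regions under 500 bp to 76.5% in those of 3000 bp or more, while PR at the midpoint stays between 0% and 7.06% in every class.

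Beyond their edges, broad domains had more H3K4me1 around them than narrower regions, and more polymerase only from 500 bp outward. H3K4me1 covered 80.7% of the first 250 bp outside broad domains and 67.9% outside narrower regions. At 10 to 20 kb it still covered 36.9% and 23.4%. Polymerase covered 28.1% and 30.9% of the first 250 bp, but 6.81% and 3.08% at 10 to 20 kb. The polymerase values were close together at the edge and apart farther out. Another H3K4me3 region lay within 500 bp of 172 domains (39.6%), a lower share than the 55.9% of narrower regions and the 50.2% of those between 1000 and 2000 bp. Part of the whole H3K4me3 list thus consists of neighbouring pieces. When regions within 500 bp were joined, 15510 regions remained, of which 1984 reached 2000 bp and 428 of those held a domain of the original list.

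**Figure D2:**
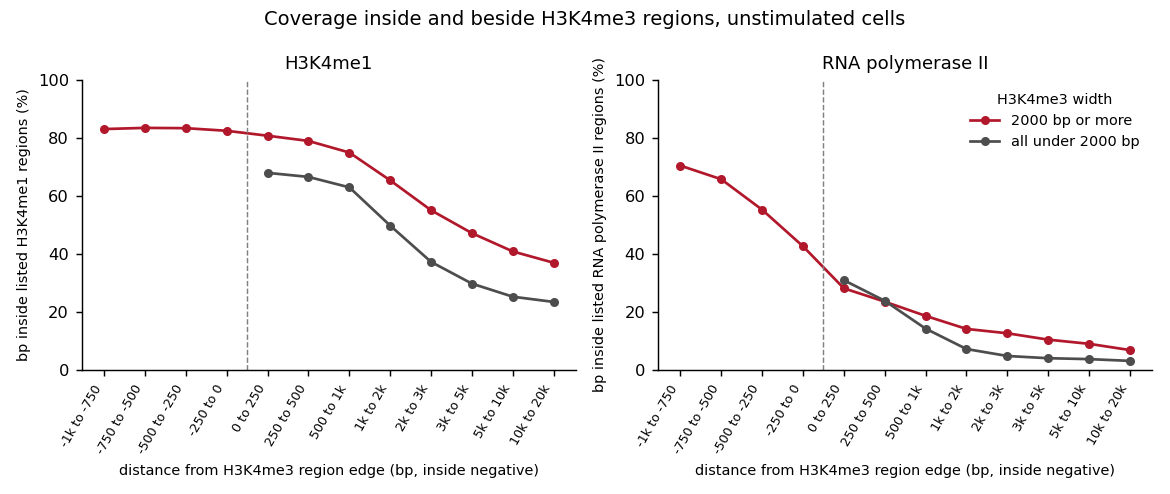
Percent of bases inside listed H3K4me1 regions (left) and polymerase regions (right), by distance from the edge of the H3K4me3 region in bp, negative distances lying inside. Red is the 434 broad domains and grey the 22156 narrower regions, drawn outside only. H3K4me1 stays near 83% inside the domains and declines slowly outside, while polymerase is already lower at the domain edge (42.6% in the outermost 250 bp).

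Before hormone, few broad domains held PR. At 0 min 3 domains held a site (0.691%, interval 0.143 to 2.01), against 0.415% of narrower and 0.421% of all regions. After 5 min of R5020 there were 82 (18.9%, 15.3 to 22.9), against 4.26% of narrower and 4.54% of all regions. At 30 min there were 81 (18.7%), against 4.65% and 4.92%. The 60 min list gave 93 domains (21.4%, 17.7 to 25.6), against 5.25% and 5.56%. The 360 min list gave 82 (18.9%), against 4.09% and 4.37%. The 4 hormone times lay close together, and at each of them the interval for broad domains lay above the share in regions between 1000 and 2000 bp (6.28%, 7.20%, 8.51% and 6.60%).

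Part of that gap goes with width. In the 500 bp at the midpoint, a 60 min site lay in 6.45% of broad domains (4.33 to 9.19) and 4.17% of narrower regions. A 5 min site lay in 4.61% (2.84 to 7.03) and 3.30%, and a 30 min site in 5.07% (3.20 to 7.57) and 3.65%. For 360 min the midpoint shares were 4.15% (2.48 to 6.48) and 3.18%. At 5, 30 and 360 min the interval for broad domains includes the value for narrower regions. Per Mb of H3K4me3, 98.2 sites at 60 min overlapped broad domains (102 sites) and 73.7 narrower regions (1151 sites), a ratio of 1.33 (1.08 to 1.63). For the 5 min list the ratio was 1.48 (interval 1.18 to 1.84), for 30 min 1.32 (from 1.05 up to 1.64) and for 360 min 1.45 (from 1.15 up to 1.81). At 0 min it was 0.640 (0.171 to 1.69), from 4 sites in broad domains. Regions under 500 bp had 110.2 sites per Mb at 60 min, counted in the same way, where a site that touches an edge weighs most. Counting only sites whose midpoint was inside gave 83.7 per Mb in broad domains and 56.8 in narrower regions. The 60 min ratio was 1.04 (0.918 to 1.17) once H3K4me3 regions within 500 bp were joined, and 1.10 (0.780 to 1.51) with only the PR sites at least as wide as the median. With a limit of 3000 bp it was 1.34 (0.688 to 2.34, from 12 sites). All 3 of these intervals include 1.

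Within the domains the sites were spread along the length. Of the 87 site midpoints inside at 60 min, 41 (47.1%, 36.3 to 58.1) were nearer to an edge than to the middle, and the share was 54.8%, 49.3% and 54.8% at 5, 30 and 360 min. Most occupied domains held a single site: 84 had 1 and 9 had 2 at 60 min. The sites inside were about as wide as others, with a median of 291 bp at 60 min against 313 bp over the whole list.

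A PR site within 10 kb, overlapping ones included, was found at a similar share of broad domains at every hormone time. The count was 12 (2.76%) at 0 min and 218 (50.2%) at 5 min. It was 217, 223 (51.4%, interval 46.6 to 56.2) and 215 (49.5%) at 30, 60 and 360 min. Narrower regions had 2.18%, 26.2%, 29.0%, 29.3% and 28.5%, and all H3K4me3 regions 2.19%, 26.7%, 29.4%, 29.8% and 28.9%. Leaving out the sites that overlap, 40.1% of broad domains and 26.6% of narrower regions had a 60 min site beside them. The median distance to the nearest 60 min site was 8.42 kb from broad domains, 24.3 kb from regions between 1000 and 2000 bp and 29.3 kb from all narrower ones. Over all times 283 domains had a site within 10 kb at least once, and 151 never did.

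**Figure D3:**
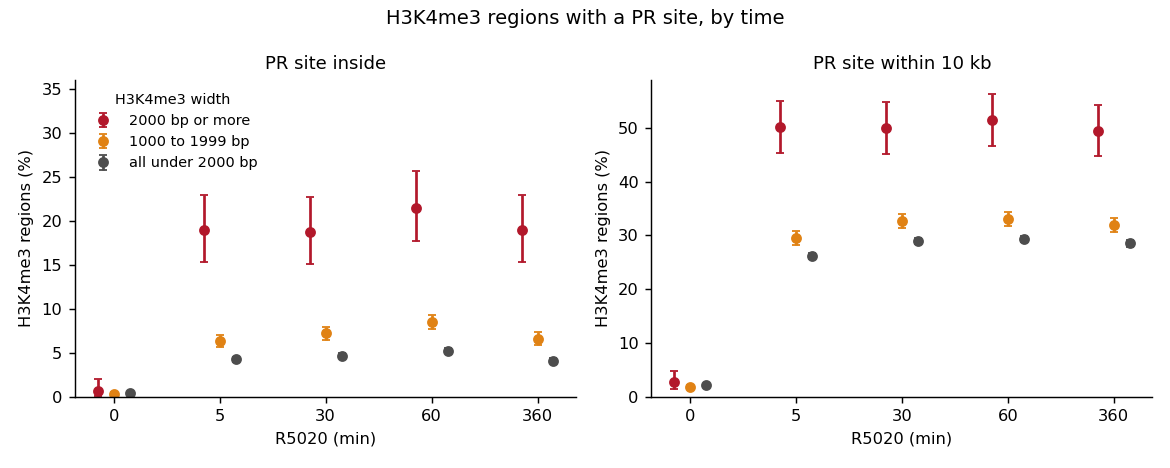
Share of H3K4me3 regions (y axis, percent) with a PR site inside (left) and within 10 kb (right) at each time of R5020 (x axis, min). Red is regions of 2000 bp or more, orange those of 1000 bp to just under 2000 bp and grey all narrower regions, and bars are exact 95% intervals. All 3 kinds sit near 0% to 3% at 0 min, and the broad domains stand above the others at the 4 hormone times.

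The density of PR sites stayed higher around broad domains well past their edges. At 60 min it was 101 site midpoints per Mb in the first 250 bp outside broad domains, 44.4 at 3 to 5 kb, 30.9 at 5 to 10 kb and 30.5 at 10 to 20 kb. Around narrower regions the values were 44.0, 19.7, 17.2 and 15.5 per Mb. Set against its own surroundings at 10 to 20 kb, the density of midpoints inside was 2.74 times higher in broad domains and 3.67 times higher in narrower regions. The H3K4me1 coverage of those surroundings, given above, was also higher around broad domains, and its part in the PR density was not tested.

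**Figure D4:**
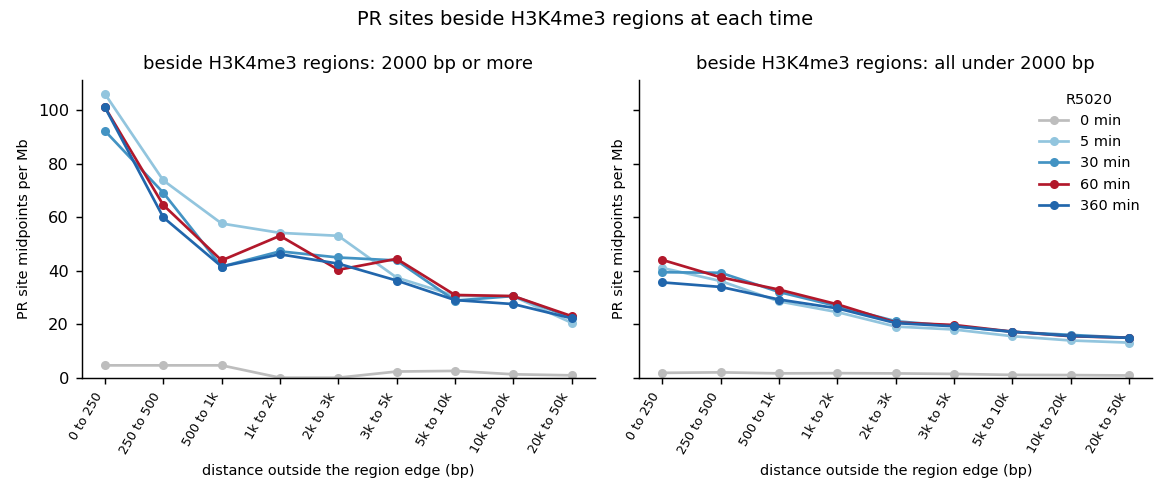
PR site midpoints per Mb (y axis) by distance outside the edge of broad domains (left) and of narrower regions (right), with 1 line for each time of R5020. The 4 hormone lines run together in both panels and start near 100 per Mb beside broad domains, where narrower regions start near 40. A stretch between neighbouring regions is counted for each of them.

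The comparison was then split by mark, where an overlap of 1 bp or more counts as having it. Among regions that overlapped both polymerase and H3K4me1, a 60 min PR site lay inside 22.3% of the broad (18.2 to 26.8), 8.96% of those between 1000 and 2000 bp and 6.76% of all narrower regions. Within 10 kb the shares were 53.0% (47.9 to 58.1), 35.2% and 33.4%. The intervals for broad domains lay above the other values here. Without polymerase the order for PR within 10 kb was the other way, 22.2% of the 18 broad domains (6.41 to 47.6), 29.8% of regions between 1000 and 2000 bp and 2002 of 7425 narrower regions (26.0 to 28.0%). The interval for the broad domains includes the other values. For PR inside at 60 min, the order without polymerase was the same as with both marks. The shares were 11.1% of the broad domains (1.38 to 34.7), 6.21% of regions between 1000 and 2000 bp and 3.26% of narrower regions. That interval also includes the other values. Polymerase also covered more of the bases of broad domains than of narrower regions, as given above, so the split does not equalize its amount.

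A domain bound at 1 hormone time was often bound at the others. PR lay inside 116 broad domains (26.7%) at 1 or more of the 5 times, beside 7.92% of all H3K4me3 regions. At all 4 hormone times it lay inside 53 (12.2%), beside 2.55% of all. As a share of the domains bound at any time, 45.7% (36.4 to 55.2) were bound at all 4 hormone times, against 31.3% (29.1 to 33.6) of bound narrower regions and 32.4% (28.6 to 36.5) of bound regions between 1000 and 2000 bp. A single time accounted for 24 domains: 9 at 5 min, 1 at 30 min, 10 at 60 min and 4 at 360 min. A domain with room for several sites can count as bound at all 4 times through different sites. Followed site by site, 55 of the 102 sites of 60 min inside broad domains (53.9%, 43.8 to 63.8) overlapped a site at 5, 30 and 360 min, against 48.0% (45.1 to 51.0) of those inside narrower regions and 41.9% of all 60 min sites. The interval for broad domains includes the value for narrower regions.

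PR was inside a domain at both 0 and 60 min in 3 cases. The first was the 3693 bp domain on chromosome 16 given above, where the 0 min site (chr16:85591221-85591410) and the 60 min site (chr16:85591831-85592117) did not overlap. The second was at VEZF1, a zinc finger factor, whose promoter is printed above (chr17:56064100-56066399, 2299 bp). There the sites of all 5 times lay across the upstream edge, the 0 min site from 56066391 and the 60 min site from 56066317. The third (chr9:68425298-68427421, 2123 bp) had 11 sites within 10 kb at 0 min and 7, 8, 7 and 8 at the later times. In the authors' deposited table its 60 min sites had 882 and 2117 MNase reads in unstimulated cells, against a median of 97.0 over all 60 min sites. Of the 12 domains with a 0 min site within 10 kb, 3 had none at any hormone time.

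At the genes of steroid signalling, the domain at PGR, which encodes PR itself, was 2974 bp wide (chr11:100997580-101000554). Polymerase covered 96.6% of it and H3K4me1 all of it, and 0, 2, 1, 1 and 1 PR sites lay inside at 0, 5, 30, 60 and 360 min. The 4 hormone lists shared a site at its upstream end (at 60 min chr11:100999933-101000332). At ESR1, the oestrogen receptor gene, 2236 bp were covered to 36.7% by polymerase and 38.9% by H3K4me1, with no PR site inside and 1 within 10 kb at 30, 60 and 360 min. The PRLR domain (chr5:35226188-35228265) had 2, 1, 2 and 2 sites inside at the 4 hormone times. ERBB2, a growth factor receptor gene, had a 2073 bp domain with 1 site within 10 kb at 5 and 30 min and none at 60 or 360 min.

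Among a further group of transcription factor genes, which is not a planned list, PR was inside the domains of GATA3, SOX13 and EHF. At EHF, an epithelial ETS factor, the domain of 2596 bp held 1 site at 30, 60 and 360 min and none at 5 min. The domains of XBP1, TFAP2A and TFAP2C (AP-2 factors), SPDEF, GRHL2, SOX4 and IRX3 held none at any time. At TFAP2C no site lay within 10 kb at any time, and at TFAP2A, 1, 2, 2 and 2 sites did at the 4 hormone times. IRX3 had 98.2% polymerase coverage but 2.94% H3K4me1 coverage of its 3362 bp.

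Among growth and response genes, the CDKN1A domain (the cell cycle inhibitor p21, chr6:36646511-36648536, 2025 bp) held 1 site at each of the 4 hormone times. The JUN domain (chr1:59247326-59249719) held 1 at 30, 60 and 360 min and none at 5 min. EDN1, the endothelin gene, had a 2349 bp domain with 1 site across its edge at each hormone time and 6, 5, 4 and 4 within 10 kb. HES1, a Notch target, and MCL1, a survival factor whose domain measured exactly 2000 bp, had sites beside and none inside. The housekeeping gene ACTB, which encodes a cytoskeletal actin, had 3, 2, 3 and 2 sites within 10 kb at the 4 hormone times and none inside. The long noncoding RNA genes NEAT1 and MALAT1 also had broad domains. Inside the MALAT1 domain of 2783 bp (chr11:65271137-65273920) 1 PR site lay at every hormone time. The unnamed domain next to it (chr11:65267464-65269789) differed, with 1 site inside at 5 min and none at 30, 60 or 360 min.

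**Figure D5:**
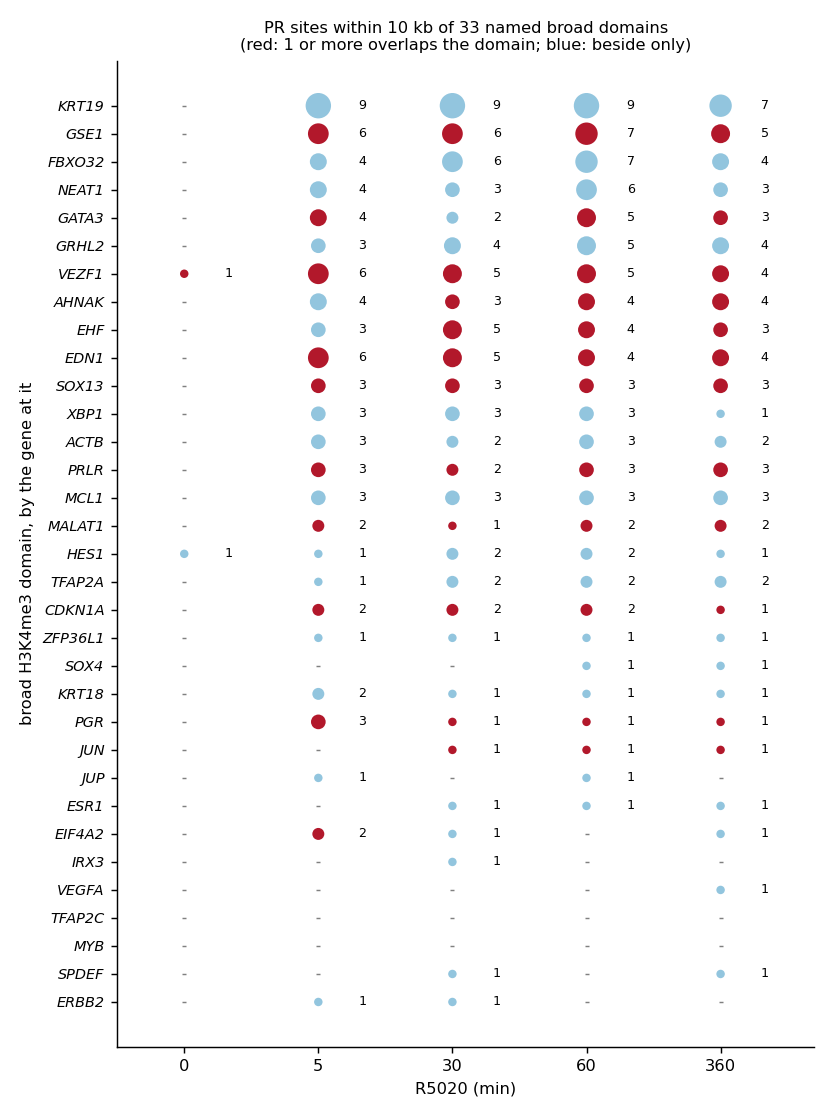
Number of PR sites within 10 kb (printed beside each circle, whose area follows it) of the 33 broad domains named by the gene at them, at each time of R5020 (x axis, min). Red circles mark times when 1 or more sites overlapped the domain, blue circles times when all lay beside it, and a dash means 0. Only HES1 and VEZF1 among these 33 have a site at 0 min, and KRT19 has the most at 60 min (9) with none inside.

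Of the 10 domains with most PR sites around them, 2 were among the 10 widest. At 60 min 17 domains (3.92%) had 5 or more sites within 10 kb, against 0.794% of narrower regions. The most, 10, were around a 2290 bp domain (chr9:117372938-117375228), which had 0, 8, 9, 10 and 6 over the 5 times and 2 inside at 60 min. After KRT19 with 9 came the GSE1 domain (2336 bp, 7 sites, 2 of them inside), the chromosome 9 domain with PR at 0 min (7) and FBXO32, a ubiquitin ligase subunit gene (2203 bp, 7 sites, none inside). The neighbouring domains on chromosome 7 (chr7:5458424-5463440 and chr7:5463809-5466706) had 6 each and share them in part. The remaining 3 of these 10 also had 6 each: a 2370 bp domain with 2 inside (chr11:35639885-35642255), NEAT1 and a 2325 bp domain (chr11:65267464-65269789).

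Nucleosome occupancy at the PR sites was read from the authors' deposited table, which gives normalized MNase sequencing reads at each 60 min site in unstimulated and 60 min R5020 cells and the ratio of the first to the second. A ratio above 1 means fewer reads after hormone. In the authors' deposited table the 102 sites inside broad domains had a median ratio of 1.88 (1.69 to 2.11), and the 1148 others inside narrower regions that have a ratio 1.98 (1.91 to 2.03). The 2 intervals overlap. Sites in no H3K4me3 region had a median of 1.28 (1.27 to 1.28) in the authors' deposited table, and sites beside broad domains 1.46 (1.37 to 1.55). Sites in no H3K4me3 region that lay in an H3K4me1 region had 1.47 (1.45 to 1.48) in the authors' deposited table. A ratio near that beside broad domains was thus also seen at H3K4me1 regions generally. Sites in broad domains, in narrower regions and in no H3K4me3 region were also split by polymerase, and those beside broad domains were not. The median ratio in the authors' deposited table was higher in polymerase regions in each group that was split. The 77 sites of broad domains in a polymerase region had 2.06 (1.80 to 2.19) and the other 25 had 1.53 (1.36 to 1.84) in the authors' deposited table. Their intervals overlap. For narrower regions the authors' deposited table gives 2.24 (2.15 to 2.34) and 1.58 (1.51 to 1.64). For sites in no H3K4me3 region the authors' deposited table gives 1.93 (1.89 to 1.98) and 1.25 (1.25 to 1.26). Among sites in polymerase regions, the intervals for broad domains and for no H3K4me3 region overlap in the authors' deposited table. The interval for narrower regions lies above that for no H3K4me3 region. Among sites not in polymerase regions, the intervals for broad domains and narrower regions both lie above that for no H3K4me3 region in the authors' deposited table.

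Single sites ranged from 0.930 to 6.53, and 4 of the 102 were under 1. In the authors' deposited table the highest ratio was at chr14:77494894-77495135, in a 3388 bp domain, with 98 reads before and 15 after hormone. The JUN site (chr1:59247321-59247565) had 54.0 and 10.0 reads, a ratio of 5.40, in the authors' deposited table. In the same deposited table by the authors, the ratio was 3.50 at CDKN1A, 2.55 at PGR, 1.69 at GATA3, 1.01 at VEZF1 and 1.00 at EDN1, where each condition had 28.0 normalized reads. The domains of CDKN1A, PGR, VEZF1 and EDN1 were all bound at every hormone time, and their ratios spanned 1.00 to 3.50. The 60 min sites of CDKN1A and PGR lay wholly inside the domain. Those of VEZF1 and EDN1 lay across its edge with most of their length outside (EDN1 site chr6:12291260-12291511, domain from 12291470).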

How the data were processed

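ChIP-seq region lists for PR (5 samples), H3K4me3, H3K4me1 and RNA polymerase II were used as deposited by the authors, in build hg19 per the submitters' processing notes. They give chromosome, start and end; the peak caller, thresholds and read depths are not stated in the labels or files used here. The authors' deposited table of 60 min sites holds MNase reads, normalized per the file headers by a method not stated and so treated as a score, and their ratio. Members, named genes and alternatives were chosen with earlier results of these data known. Overlaps (1 bp or more), distances and exact 95% intervals were computed in Python 3.11.15 with NumPy 2.4.6, pandas 2.3.3 and SciPy 1.17.1, and the overlap code was tested on simulated regions. Named domains are the 10 widest, the 10 with most 60 min sites within 10 kb and those with PR at 0 and 60 min; the other genes were added after their values were seen. The planned gene lists and markers were not matched, since no hg19 annotation was used here. The alternatives were other width, overlap and distance limits, joined regions, and chromosomes left out.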

Additional observations from a re-analysis of the deposited data

How the results depend on the processing

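No paired analysis was possible because each group holds 1 sample, and no replicate could be left out for the same reason. The 6 main results were the shares with polymerase, with H3K4me1, with a 60 min PR site inside and within 10 kb, the ratio of PR sites per Mb and the median MNase ratio. Of 51 alternatives, 5 change only the regions compared with and leave the broad value as it is. Of the other 46, 30 stayed inside the main interval. These include the alternatives without chromosomes X and Y, without chromosome 12 and without part of chromosome 9. They kept 431, 398 and 433 of the 434 domains and so could move the values little. Among all 51, 42 concern shares and density, and in each of those the broad value was above that of the regions compared. For some density ratios the interval includes 1, as given below. With a limit of 3000 bp (34 domains) the values were 100.0% polymerase, 97.1% H3K4me1, 32.4% PR inside, 76.5% PR within 10 kb, a density ratio of 1.34 (0.688 to 2.34) and a median MNase ratio of 1.65 in the authors' deposited table. With regions within 500 bp joined they were 88.0% H3K4me1, 16.2% PR inside and 40.4% within 10 kb, and the density ratio was 1.04 (0.918 to 1.17), so the higher density per Mb did not hold for joined regions. Joining also turned the order at 0 min, to 0.454% inside (0.584% in narrower regions) and 1.86% within 10 kb (2.65%). At the midpoint the shares were 85.7% polymerase, 86.6% H3K4me1 and 6.45% PR inside. With only 60 min sites at least as wide as the median PR was inside 9.22% and within 10 kb of 30.9%, and the density ratio of 1.10 had an interval (0.780 to 1.51) that includes 1. PR lay within 5 kb of 43.5% and beside 40.1%. The cause of these shifts was not tested. Leaving out chromosome 9 from 68 to 69 Mb, an alternative chosen after seeing the data, left 2 of the 3 domains with PR at 0 min and kept the 6 main results inside their intervals. Read depth is unknown, so a region not listed may lie under the authors' threshold.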
